A study of Homo sapiens with 35 samples.

Results

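The HOX genes encode homeodomain transcription factors that stand in 4 clusters, HOXA to HOXD, and that were followed here in the prostate cancer cell line DU145 after knockdown of either of 2 chromatin regulators. Members were the entries of the deposited gene table named HOXA, HOXB, HOXC or HOXD followed by a number alone. There were 39 of them among 28503 genes: 11 in HOXA, 10 in HOXB, 9 in HOXC and 9 in HOXD. Of the 39, 28 had a mean count of 10 or more over the 6 RNA-seq libraries.

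DU145 is an established human line that came from a brain metastasis of a prostate tumour. The libraries came from cells with a short hairpin RNA against ZMYND8 (shZMYND8), a hairpin against JARID1D (shJARID1D) or a control hairpin against luciferase (shLuciferase), with 2 libraries in each group. ZMYND8 is a reader of histone marks and JARID1D, the product of KDM5D, is a demethylase of histone H3 lysine 4; the study asked which genes they hold down in cells that can metastasize. All 3 groups carry a hairpin and grew in the same serum-containing medium, and the labels name neither the hairpin sequences nor the time after their delivery, nor whether the libraries within a group were grown apart. The p-values therefore rest on the scatter of library pairs, which may be only technical, and each knockdown is represented as the labels give it, without a second hairpin named. The 29 chromatin samples were not analysed here.

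Along each cluster the HOX genes are numbered from the 3′ end (anterior, low numbers) to the 5′ end (posterior, up to 13), and in embryos their order along the chromosome follows their order of expression along the body axis. HOX proteins bind DNA together with cofactors of the TALE class such as PBX and MEIS proteins, retinoic acid signalling can induce the 3′ genes, Polycomb complexes keep the clusters silent and MLL complexes keep them active. In the prostate HOXB13 is a lineage marker, and in the mouse Hoxa13 and Hoxd13 are needed for the normal growth of the organ.

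Promoter windows of RefSeq, which run from 250 bases before a start to 50 after it on build GRCh38.p14, were found for 20 of the 39 members, 27 windows in all. The 4 below belong to members that passed the test in shZMYND8 and have a single window. They are shown because the members that were higher and the member that was lower can be set side by side. Bases are in lower case, with each CG dinucleotide, the target of DNA methylation, in capitals.
HOXD1, chr2:176188418-176188717, plus strand: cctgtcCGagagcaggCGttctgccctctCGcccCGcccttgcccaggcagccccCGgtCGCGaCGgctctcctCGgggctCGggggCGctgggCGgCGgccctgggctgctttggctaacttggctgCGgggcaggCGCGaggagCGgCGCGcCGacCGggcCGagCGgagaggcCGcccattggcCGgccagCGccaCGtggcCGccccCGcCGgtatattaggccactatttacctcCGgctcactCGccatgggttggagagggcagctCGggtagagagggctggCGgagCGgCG
HOXA13, chr7:27200042-27200341, minus strand: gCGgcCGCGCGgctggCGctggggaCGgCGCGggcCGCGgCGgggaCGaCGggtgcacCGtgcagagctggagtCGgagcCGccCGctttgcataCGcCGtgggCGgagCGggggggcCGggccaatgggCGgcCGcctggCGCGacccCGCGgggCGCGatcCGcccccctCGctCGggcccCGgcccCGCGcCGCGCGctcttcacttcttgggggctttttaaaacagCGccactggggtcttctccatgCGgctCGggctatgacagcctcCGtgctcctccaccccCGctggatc
HOXA11, chr7:27185183-27185482, minus strand: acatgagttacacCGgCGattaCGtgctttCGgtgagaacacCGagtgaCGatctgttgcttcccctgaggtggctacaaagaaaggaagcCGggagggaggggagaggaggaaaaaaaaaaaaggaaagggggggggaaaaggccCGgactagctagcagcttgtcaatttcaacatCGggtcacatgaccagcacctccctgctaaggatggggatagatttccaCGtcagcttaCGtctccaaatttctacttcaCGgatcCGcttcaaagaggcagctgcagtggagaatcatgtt
HOXA2, chr7:27102634-27102933, minus strand: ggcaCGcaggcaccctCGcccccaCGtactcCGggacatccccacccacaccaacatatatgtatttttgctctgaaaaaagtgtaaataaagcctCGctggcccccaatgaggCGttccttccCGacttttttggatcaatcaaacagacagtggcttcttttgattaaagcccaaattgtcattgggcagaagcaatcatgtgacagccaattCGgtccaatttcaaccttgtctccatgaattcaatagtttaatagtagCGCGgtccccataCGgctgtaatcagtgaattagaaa
The windows of HOXD1 and HOXA13 held 36 and 44 CG dinucleotides, those of HOXA11 and HOXA2 held 13 and 11, and the median over all 35116 windows was 14. On both strands, the letters TGATTNAT, a form of the joint PBX and HOX binding sequence, occurred in the HOXA2 window and in 2 of the 27 HOX windows (7.41%), against 2.82% of all windows. The TATA box letters TATAAA occurred in 5 HOX windows (18.5%, against 11.5% of all) and the GC box letters GGGCGG in 13 (48.1%, against 45.0% of all). A match of letters is a description and no evidence of binding. In RefSeq a start of the antisense transcript HAGLR, which the table lists as HOXD-AS1, lies 96 bases upstream of the HOXD1 start on the other strand, and a start of HOXA11-AS lies 176 bases upstream of that of HOXA11.

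The deposited values are estimated fragment counts per gene, which sum to 22090855 to 24179831 per library. They are given below as CPM, counts scaled to a common library size, after scaling by the trimmed mean of M values (TMM). They are not divided by transcript length, so levels of different genes are not compared. A count of 3 fragments, the most that a listed value of 0 allows, equals 0.112 to 0.151 CPM before that scaling, which covers counting error only. The hairpin targets moved with the labels: ZMYND8 had 35.5 and 33.2 CPM in shZMYND8, 69.7 and 63.7 CPM in shJARID1D, and 64.7 and 52.7 CPM in shLuciferase, and KDM5D had 55.5 and 59.9 CPM in shZMYND8, 19.6 and 17.9 CPM in shJARID1D, and 58.1 and 61.04 CPM in shLuciferase. ZMYND8 was lower in shZMYND8 than in shLuciferase, with a log2 fold change of -0.77 ± 0.13 (SE; edgeR adjusted p = 0.00491), and KDM5D was lower in shJARID1D, with one of -1.67 ± 0.12 (SE; edgeR adjusted p = 0.000831). All 6 epithelial markers were detected, whereas of 10 markers of prostate luminal cells FOLH1, KLK2 and HOXB13 were among those that were listed at 0 in every library.

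How many HOX genes reached a mean count of 10 differed by cluster, and neither cluster nor position was tested. In HOXA 9 of 11 members reached a mean count of 10, the exceptions being HOXA4 and HOXA7, and in HOXB 8 of 10, the exceptions being HOXB1 and HOXB13 at its ends. In HOXC 8 of 9 did so, all but HOXC12, and in HOXD only HOXD1, HOXD8 and HOXD9 of 9. HOXB1, HOXB13, HOXC12 and HOXD12 were listed at 0 in all 6 libraries. By position, 6 of 8 anterior members (numbers 1 to 3), 12 of 15 central members (4 to 8) and 10 of 16 posterior members (9 to 13) reached the minimum. The posterior members below it include HOXD10, HOXD11, HOXD12 and HOXD13, so position and cluster cannot be told apart here.

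**Figure D1:**
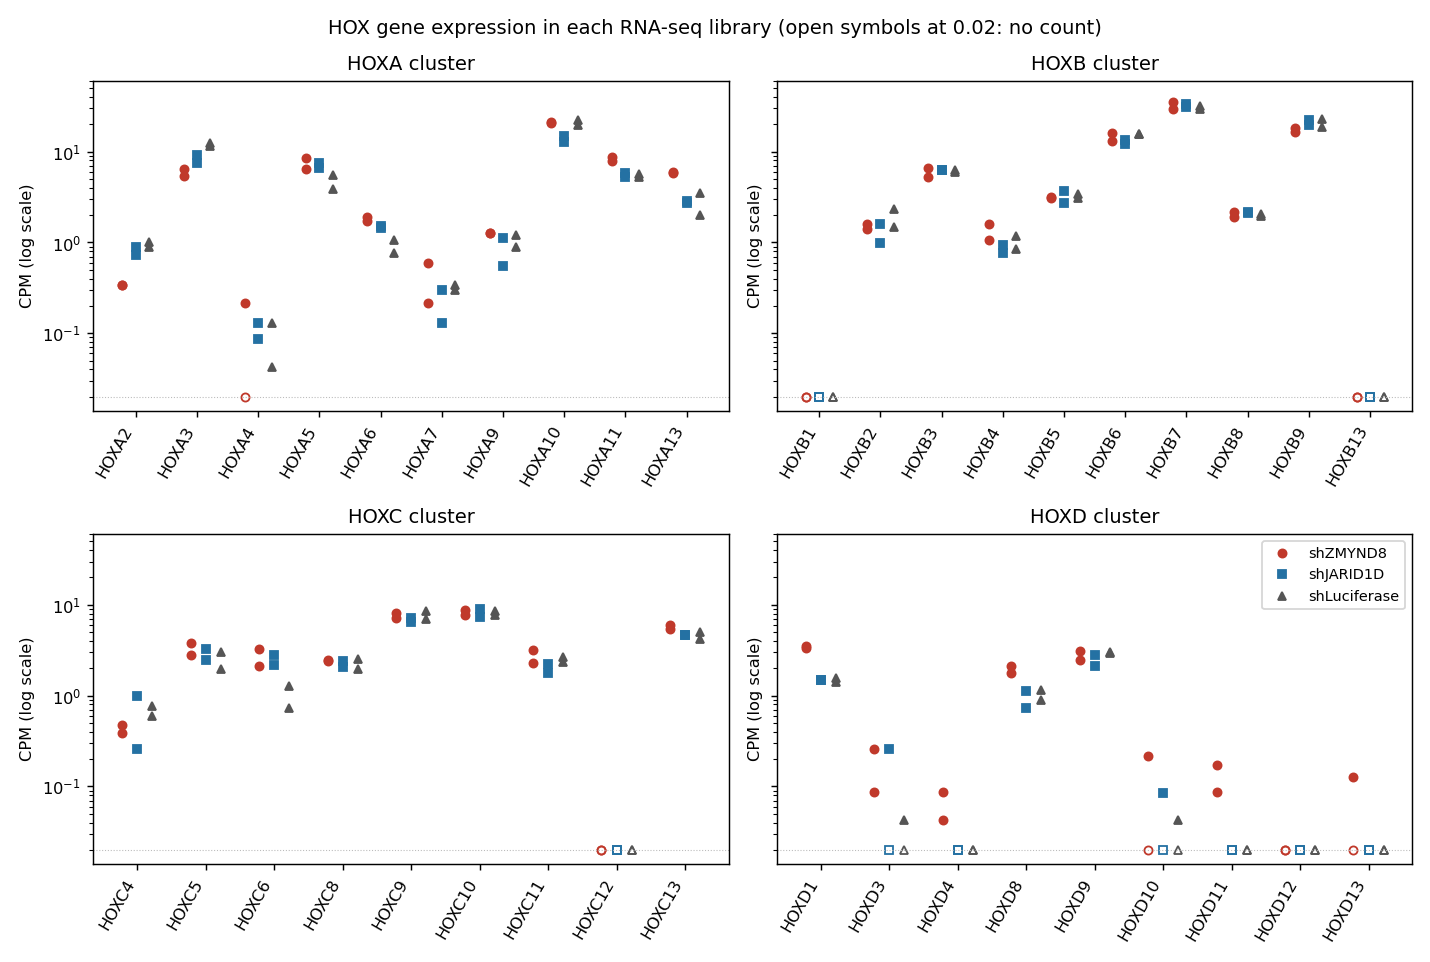
CPM of the HOX genes on a log axis, by cluster and number, with 1 symbol per library (circles shZMYND8, squares shJARID1D, triangles shLuciferase) and open symbols on the dotted line for libraries without a count. The shZMYND8 and shLuciferase libraries did not overlap for 14 of 28 tested members (50%), beside 57.8% of all genes tested. The members that passed the test, HOXA2, HOXA3, HOXA11, HOXA13, HOXC6 and HOXD1, are among them. Most HOXB genes do not separate the groups, and most HOXD genes lie near the bottom. CPM is not per length, so heights of different genes are not comparable.

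The summed CPM of all HOX genes was 195.2 and 177.1 in shZMYND8, 172 and 165.3 in shJARID1D, and 176.7 and 175.8 in shLuciferase. After TMM scaling the groups did not overlap, with shZMYND8 highest and shJARID1D lowest. With library totals only they overlapped. The sums were then 196.3 and 174.8 in shZMYND8, 181.6 and 166.8 in shJARID1D, and 172.5 and 169.9 in shLuciferase. The shZMYND8 libraries differed more from each other than shZMYND8 replicate 2 did from either control, and the sums were not tested. The HOXD sum, 8.997 and 8.416 CPM in shZMYND8, 5.74 and 4.37 in shJARID1D and 5.45 and 5.61 in shLuciferase, was higher in both shZMYND8 libraries than in the other 4. HOXB gave the most counts of the clusters, with 41.7% to 49.0% of all HOX counts in a library, and HOXD the fewest, with 2.65% to 4.76%. Counts are not divided by transcript length, so these shares do not rank the clusters by transcript level.

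Knockdown of ZMYND8 was compared with the luciferase control to ask which HOX genes differ when the reader is reduced. Of the 28 members tested, 6 passed an adjusted p of 0.05 in edgeR's quasi-likelihood test (21.4%, beside 16.2% of all 15867 genes). HOXA11, HOXA13, HOXC6 and HOXD1 were higher, 4 of 28 beside 8.89% of all genes, and HOXA2 and HOXA3 were lower, 2 of 28 beside 7.34%. The members' share was not tested against that of all genes. Their median log2 fold change was 0.09, beside -0.01 over all genes tested. At an unadjusted p under 0.05 there were 10 members, beside 31.3% of all genes, and the libraries of the groups did not overlap for 14 of 28 members (50%), beside 57.8% of all genes. In bulk RNA, a change in the number of cells that express a gene and a change in RNA per cell cannot be told apart. The count of 6 fell to 1 without shZMYND8 replicate 1, to 0 without shZMYND8 replicate 2 (with 7 members at an unadjusted p under 0.05) and to 3 without shLuciferase replicate 2; without the other libraries it was 4 each time. DESeq2 gave 4 members and limma voom 5.

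By cluster, 4 of 9 tested HOXA members passed, 1 of 8 in HOXC, 1 of 3 in HOXD and 0 of 8 in HOXB. In HOXB no member reached an unadjusted p under 0.05 either, and neither DESeq2 nor limma voom called one. The count by cluster is a description, with no test of one cluster against another. By position, 3 of 6 anterior, 1 of 12 central and 2 of 10 posterior members passed.

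HOXD1, the 3′-most gene of its cluster, which in the mouse takes part in the wiring of pain-sensing neurons, had 3.51 and 3.35 CPM in shZMYND8, 1.5 and 1.5 CPM in shJARID1D, and 1.58 and 1.41 CPM in shLuciferase. Both shZMYND8 libraries lay above all 4 others, which were nearly level with each other. HOXD1 was 2.29-fold higher in shZMYND8 than in shLuciferase, a log2 fold change of 1.20 ± 0.27 (SE; edgeR adjusted p = 0.0152). The call was lost without shZMYND8 replicate 1 (edgeR adjusted p = 0.117) and without shZMYND8 replicate 2 (0.0867), and adjusted p ran from 0.00820 to 0.117 over all alternatives.

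HOXA13, the 5′-most HOXA gene, which patterns the digits and the urogenital tract, had 5.78 and 5.93 CPM in shZMYND8, 2.87 and 2.74 CPM in shJARID1D, and 3.53 and 2.01 CPM in shLuciferase. The shZMYND8 libraries lay above the other 4 without overlap. Its log2 fold change was 1.08 ± 0.28 (SE; edgeR adjusted p = 0.027), or 2.11-fold. The call was lost without shZMYND8 replicate 1 (edgeR adjusted p = 0.131), without shZMYND8 replicate 2 (0.132), without shLuciferase replicate 2 (0.0709) and with no filter on low counts (0.0552), within a range of 0.00452 to 0.132. Its neighbour HOXA11, needed in the mouse for the uterus and the forearm, had 7.93 and 8.8 CPM in shZMYND8, 5.31 and 5.79 CPM in shJARID1D, and 5.28 and 5.7 CPM in shLuciferase. It was again higher in both shZMYND8 libraries than in any other, with a log2 fold change against shLuciferase of 0.61 ± 0.18 (SE; edgeR adjusted p = 0.0473). That call was just inside the threshold: it was lost without any 1 of the 6 libraries (edgeR adjusted p from 0.0584 to 0.246), with no filter (0.0647), with the 2 groups alone (0.0720) and by DESeq2 (0.0945).

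HOXC6, which is often overexpressed in prostate tumours, had 3.26 and 2.15 CPM in shZMYND8, 2.83 and 2.19 CPM in shJARID1D, and 0.724 and 1.29 CPM in shLuciferase. All 4 knockdown libraries exceeded both controls. Its log2 fold change in shZMYND8 was 1.42 ± 0.37 (SE; edgeR adjusted p = 0.0294), or 2.68-fold. The call was lost without shZMYND8 replicate 1 (edgeR adjusted p = 0.229), shZMYND8 replicate 2 (0.0551) or shLuciferase replicate 1 (0.0908) and with no filter (0.0569), within a range of 0.0161 to 0.229. The 2 shLuciferase libraries themselves differed, and shLuciferase replicate 1 had the lowest value.

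The members that fell stand next to each other near the 3′ end of HOXA. HOXA3, which in the mouse is needed for the thymus and the parathyroid, had 6.51 and 5.41 CPM in shZMYND8, 7.41 and 9.09 CPM in shJARID1D, and 12.5 and 11.6 CPM in shLuciferase. The 3 groups did not overlap, with shZMYND8 lowest, shJARID1D between and shLuciferase highest. HOXA3 was 2.02-fold lower in shZMYND8, a log2 fold change of -1.01 ± 0.18 (SE; edgeR adjusted p = 0.00612). It kept its call in 14 of 15 alternatives and lost it without shZMYND8 replicate 2 (edgeR adjusted p = 0.0668), within a range of 0.000493 to 0.0668. HOXA2, which sets the identity of tissue in the pharyngeal arches, had 0.343 and 0.343 CPM in shZMYND8, 0.90 and 0.729 CPM in shJARID1D, and 1.02 and 0.90 CPM in shLuciferase. Its shZMYND8 values were the lowest of the 6, at 8.9 and 8.8 fragments. The log2 fold change was -1.47 ± 0.44 (SE; edgeR adjusted p = 0.049). It passed in 3 of 14 alternatives: the call was lost without any 1 library (edgeR adjusted p from 0.0795 to 0.247), with library totals only (0.0578), with no filter (0.0612), with the 2 groups alone (0.0594), by limma voom (0.0546) and by DESeq2 (0.165). Its fragments were non-whole in all 6 libraries, and whether its reads were divided between entries was not tested, so its value is uncertain.

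Among the HOXA members that did not pass, HOXA6 had 1.71 and 1.93 CPM in shZMYND8, 1.46 and 1.5 CPM in shJARID1D, and 0.766 and 1.07 CPM in shLuciferase, with a log2 fold change in shZMYND8 of 0.98 ± 0.34 (SE; edgeR adjusted p = 0.0747). HOXA5, which in the mouse is needed for lung development, had 8.48 and 6.4 CPM in shZMYND8, 7.46 and 6.6 CPM in shJARID1D, and 5.49 and 3.9 CPM in shLuciferase, with a log2 fold change of 0.66 ± 0.23 (SE; edgeR adjusted p = 0.0797). Both genes had every shZMYND8 library above every shLuciferase library, without passing the threshold. HOXA9, a regulator of blood stem cells and leukaemia, had 1.29 and 1.29 CPM in shZMYND8, 1.11 and 0.557 CPM in shJARID1D, and 0.894 and 1.2 CPM in shLuciferase, with a log2 fold change of 0.30 ± 0.41 (SE; edgeR adjusted p = 0.672). HOXA9 too was higher in both shZMYND8 libraries than in both controls, without passing. HOXA10, which acts in the uterus, had 20.5 and 21.2 CPM in shZMYND8, 15.04 and 12.9 CPM in shJARID1D, and 22.3 and 19.4 CPM in shLuciferase, and its log2 fold change in shZMYND8 was -0.00, with a 95% interval from -0.31 to 0.31.

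**Figure D2:**
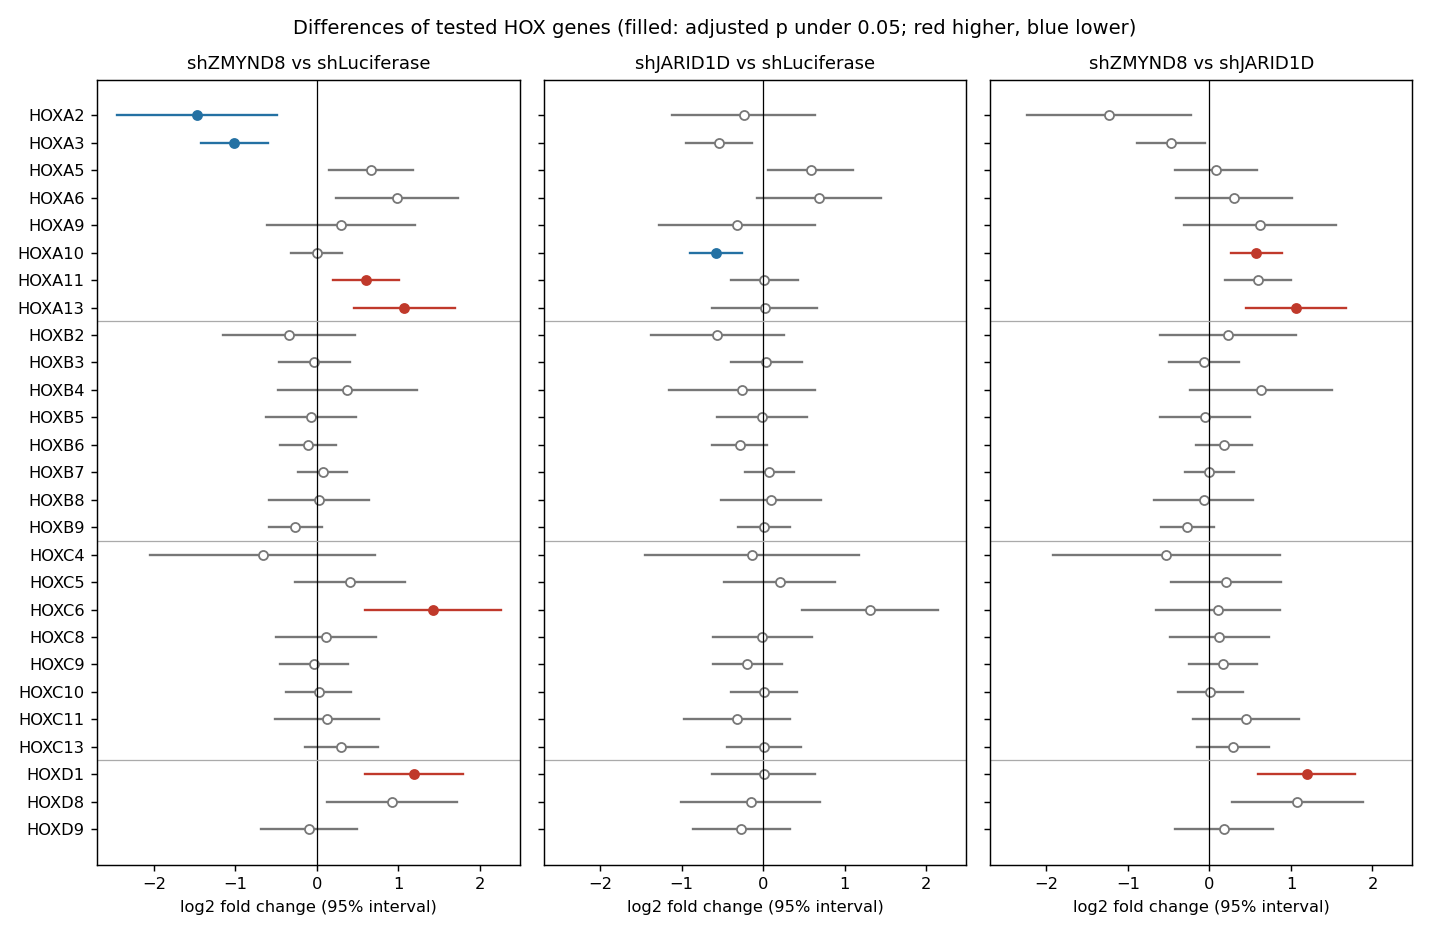
Log2 fold change of tested HOX genes in the 3 comparisons, with bars for the 95% interval of the fit and filled symbols (red higher, blue lower) where the edgeR adjusted p was under 0.05. In shZMYND8 against shLuciferase the filled genes are HOXA2 and HOXA3 below 0 and HOXA11, HOXA13, HOXC6 and HOXD1 above it, and the HOXB genes stay between -0.34 and 0.37.

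The HOXB genes gave many of the HOX counts and little difference. HOXB7 had 35.7 and 29.3 CPM in shZMYND8, 31.5 and 33.7 CPM in shJARID1D, and 29.7 and 32.3 CPM in shLuciferase. HOXB6 had 16.1 and 13.1 CPM in shZMYND8, 13.6 and 12.1 CPM in shJARID1D, and 15.6 and 15.8 CPM in shLuciferase. HOXB9 had 18.3 and 16.5 CPM in shZMYND8, 19.9 and 22.1 CPM in shJARID1D, and 18.8 and 22.9 CPM in shLuciferase. HOXB6 and HOXB7 overlapped between shZMYND8 and shLuciferase, and HOXB9 was lower in both shZMYND8 libraries without passing. HOXB3 had 5.27 and 6.66 CPM in shZMYND8, 6.3 and 6.22 CPM in shJARID1D, and 5.92 and 6.25 CPM in shLuciferase. HOXB5 had 3.08 and 3.13 CPM in shZMYND8, 3.73 and 2.74 CPM in shJARID1D, and 3.11 and 3.43 CPM in shLuciferase. HOXB8 had 1.89 and 2.19 CPM in shZMYND8, 2.19 and 2.1 CPM in shJARID1D, and 1.96 and 2.06 CPM in shLuciferase. These 3 genes overlapped between shZMYND8 and shLuciferase as well. HOXB2, a regulator of hindbrain identity, had 1.59 and 1.42 CPM in shZMYND8, 1.59 and 0.986 CPM in shJARID1D, and 1.49 and 2.31 CPM in shLuciferase. HOXB4, known for its effect on blood stem cells, had 1.07 and 1.59 CPM in shZMYND8, 0.771 and 0.943 CPM in shJARID1D, and 1.19 and 0.857 CPM in shLuciferase. The log2 fold changes of the 8 genes in shZMYND8 ran from -0.34 to 0.37, with edgeR adjusted p from 0.257 to 0.968, and their 95% intervals reached -1.15 and 1.23 at the widest. For HOXB7 the change was 0.07, with a 95% interval from -0.23 to 0.37, and for HOXB9 it was -0.26, with a 95% interval from -0.59 to 0.06.

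In HOXC 7 of the 8 tested members did not pass in shZMYND8. HOXC9 had 8.05 and 7.21 CPM in shZMYND8, 7.2 and 6.43 CPM in shJARID1D, and 8.64 and 6.94 CPM in shLuciferase. HOXC10 had 8.83 and 7.69 CPM in shZMYND8, 8.96 and 7.42 CPM in shJARID1D, and 8.47 and 7.8 CPM in shLuciferase. Neither separated shZMYND8 from shLuciferase, and the change of HOXC10 was 0.02, with a 95% interval from -0.38 to 0.42. HOXC13, which is needed for hair and nails, had 5.44 and 5.97 CPM in shZMYND8, 4.67 and 4.67 CPM in shJARID1D, and 5.02 and 4.24 CPM in shLuciferase. HOXC11 had 3.17 and 2.28 CPM in shZMYND8, 2.23 and 1.76 CPM in shJARID1D, and 2.34 and 2.66 CPM in shLuciferase. HOXC13 was slightly higher in both shZMYND8 libraries and HOXC11 overlapped. HOXC8 had 2.44 and 2.4 CPM in shZMYND8, 2.06 and 2.4 CPM in shJARID1D, and 2.51 and 1.97 CPM in shLuciferase. HOXC5 had 3.77 and 2.79 CPM in shZMYND8, 3.26 and 2.44 CPM in shJARID1D, and 1.96 and 3.0 CPM in shLuciferase. Both overlapped between shZMYND8 and shLuciferase. HOXC4 had 0.471 and 0.386 CPM in shZMYND8, 0.985 and 0.257 CPM in shJARID1D, and 0.596 and 0.771 CPM in shLuciferase. HOXC4, at 5 to 23 fragments a library, was the least certain of the cluster, with a change of -0.67, with a 95% interval from -2.04 to 0.71, and HOXC4 and HOXC5 share 1 RefSeq window. Fragments of HOXC13 were non-whole in 4 libraries and those of HOXC5 in 3.

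In HOXD, HOXD8 had 1.76 and 2.15 CPM in shZMYND8, 1.11 and 0.729 CPM in shJARID1D, and 0.894 and 1.16 CPM in shLuciferase, higher in both shZMYND8 libraries than in the others, with a log2 fold change of 0.93 ± 0.36 (SE; edgeR adjusted p = 0.108). HOXD9 had 3.13 and 2.45 CPM in shZMYND8, 2.79 and 2.14 CPM in shJARID1D, and 2.94 and 3.0 CPM in shLuciferase, with a log2 fold change of -0.09 ± 0.26 (SE; edgeR adjusted p = 0.853). HOXD8 thus had its highest values in shZMYND8, as HOXD1 did, without passing the threshold, and HOXD9 did not.

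The other 7 detected members, all under a mean count of 10, were not tested. HOXA4 had 0 to 5.0 fragments a library and HOXA7 2.7 to 14.7, and in both genes the shZMYND8 libraries overlapped the controls. HOXD3 had 6.0 and 2.0 fragments in shZMYND8, 6.0 and 0 in shJARID1D, and 1.0 and 0 in shLuciferase. HOXD10 had 0 and 6.0 fragments in shZMYND8, 2.0 and 0 in shJARID1D, and 0 and 1.0 in shLuciferase. HOXD4, HOXD11 and HOXD13 had fragments only in shZMYND8 libraries: together they had 8 and 4 fragments in shZMYND8 and 0 in each of the other 4 libraries. HOXD11 had 4.0 and 2.0 of these, HOXD4 1.0 and 2.0, and HOXD13 3.0 and 0. These genes were singled out after their values were seen, and no test was made. Apart from HOXD11 in shZMYND8 replicate 1, each of these values lies at or under the 3 fragments that a listed 0 allows.

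Knockdown of JARID1D was compared with the same 2 luciferase libraries, which both comparisons share. Of the 28 members 1 passed, HOXA10, which was lower (3.57%, beside 5.75% of all genes tested; 2.79% of all genes were lower), and the members' median log2 fold change was -0.00162, beside 0.000957 over all genes. HOXA10 had the values given above, with both shJARID1D libraries below the other 4. It was 1.49-fold lower than in shLuciferase, a log2 fold change of -0.58 ± 0.14 (SE; edgeR adjusted p = 0.0457). The call was lost without shZMYND8 replicate 1 (edgeR adjusted p = 0.0940), shZMYND8 replicate 2 (0.0977), shJARID1D replicate 1 (0.169), shJARID1D replicate 2 (0.265) or shLuciferase replicate 1 (0.0595). It was kept without shLuciferase replicate 2 (edgeR adjusted p = 0.0233), when HOXC6 passed as well, and over all alternatives the adjusted p ran from 0.0158 to 0.265. Library totals only (0.0886), no filter (0.0881), a mean count of at least 50 (0.0504), limma voom (0.0535) and the 2 groups alone (0.0955) also put its edgeR or limma adjusted p above the threshold. The fragments of HOXA10 were non-whole in 5 of 6 libraries, so its level is uncertain.

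The members next nearest to the threshold in shJARID1D were HOXC6, with a log2 fold change of 1.32 ± 0.37 (SE; edgeR adjusted p = 0.0695), HOXA3, with -0.54 ± 0.18 (SE; edgeR adjusted p = 0.106), and HOXA5, with 0.58 ± 0.23 (SE; edgeR adjusted p = 0.166). Each had both shJARID1D libraries on the same side of both controls. Over the 28 members, 10 had groups that did not overlap, 35.7%, beside 51.9% of all genes tested, and 4 had an unadjusted p under 0.05, beside 23.6%. HOXD1, HOXA11 and HOXA13, all higher in shZMYND8, had changes in shJARID1D of 0.01, with a 95% interval from -0.63 to 0.64, of 0.02, with a 95% interval from -0.40 to 0.43 and of 0.02, with a 95% interval from -0.62 to 0.66. The 27 members that did not pass had log2 fold changes from -0.56 to 1.32, and 22 of them were under 0.5 in size.

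**Figure D3:**
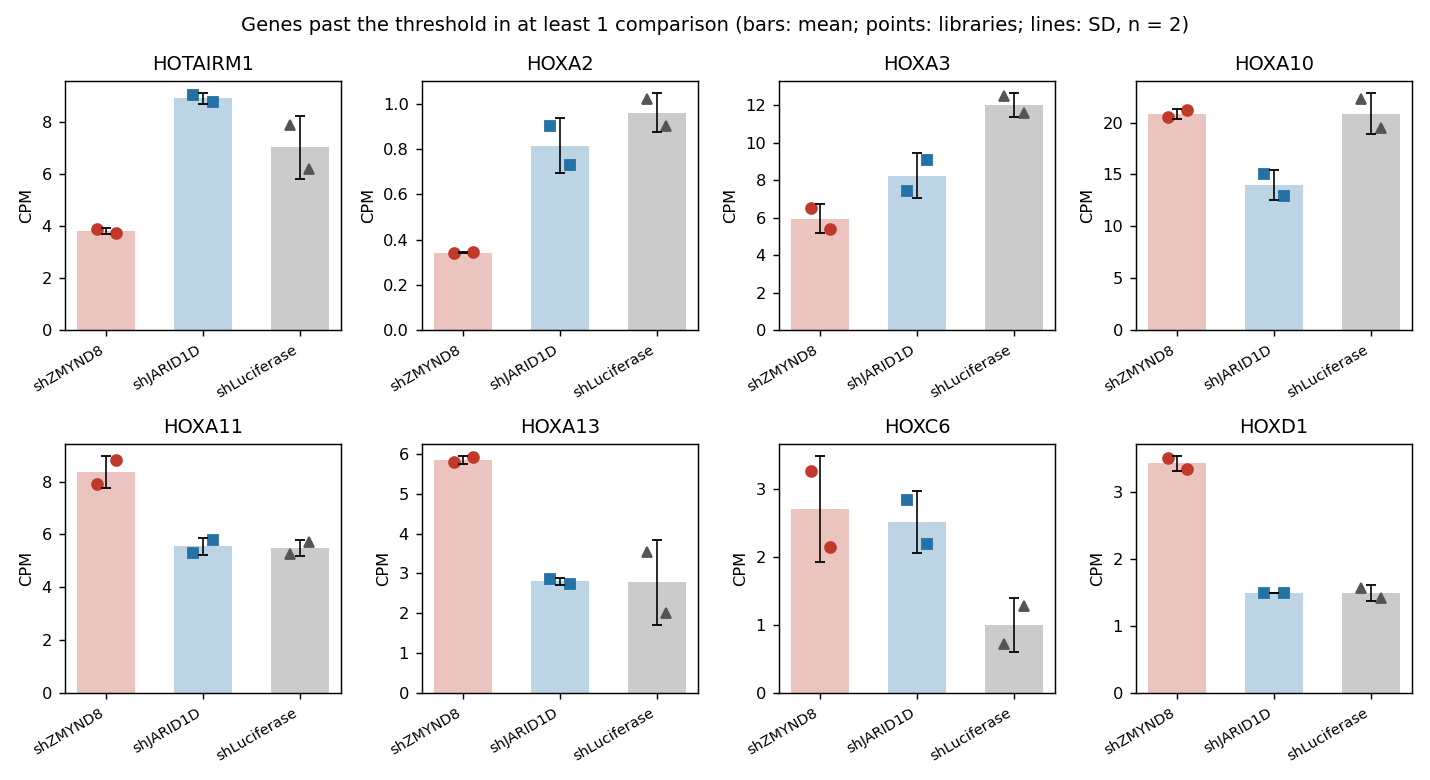
CPM of HOXA2, HOXA3, HOXA10, HOXA11, HOXA13, HOXC6, HOXD1 and the noncoding HOTAIRM1 in each library, with bars at the mean of the 2 libraries and lines for the SD. HOXA13 and HOXD1 are high in shZMYND8 alone, HOXA10 is low in shJARID1D alone, HOXC6 is lowest in shLuciferase, and HOTAIRM1 is lowest in shZMYND8.

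The direct comparison of shZMYND8 with shJARID1D asked whether the knockdowns differ from each other. Of 28 members 3 passed, all higher in shZMYND8 (10.7%, beside 15.7% of all genes tested; 8.67% of all genes were higher): HOXA10, HOXA13 and HOXD1. In edgeR 0 of 28 were lower, beside 7.02% of all genes, and DESeq2 and limma voom called none lower either; 7 members had an unadjusted p under 0.05 in either direction, beside 32.1%. HOXD1 differed by a log2 fold change of 1.19 ± 0.27 (SE; edgeR adjusted p = 0.018), HOXA13 by 1.06 ± 0.27 (SE; edgeR adjusted p = 0.0304) and HOXA10 by 0.57 ± 0.14 (SE; edgeR adjusted p = 0.0249). For HOXA10 it was the shJARID1D libraries that stood below the controls, whereas for HOXD1 and HOXA13 it was the shZMYND8 libraries that stood above them. Each of the 3 calls was lost without any 1 of the 4 knockdown libraries. Without shZMYND8 replicate 1, shZMYND8 replicate 2, shJARID1D replicate 1 and shJARID1D replicate 2 in turn, the edgeR adjusted p was 0.117, 0.102, 0.0974 and 0.102 for HOXD1, and 0.133, 0.151, 0.117 and 0.149 for HOXA13. For HOXA10 it was 0.123, 0.153, 0.0749 and 0.198. Without a luciferase library all 3 kept their calls, and over all alternatives the adjusted p ran from 0.00919 to 0.117 for HOXD1, from 0.00485 to 0.151 for HOXA13 and from 0.00754 to 0.198 for HOXA10.

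HOXA11 had a difference of 0.59 ± 0.18 (SE; edgeR adjusted p = 0.0528) between the knockdowns, HOXD8 one of 1.08 ± 0.36 (SE; edgeR adjusted p = 0.0706) and HOXA2 one of -1.23 ± 0.45 (SE; edgeR adjusted p = 0.0903), and none of these passed. For HOXC6 the difference was 0.11, with a 95% interval from -0.65 to 0.87, and for HOXA3 it was -0.47, with a 95% interval from -0.88 to -0.05. The calls of HOXC6, HOXA2, HOXA3 and HOXA11 in shZMYND8 are therefore not shown to be particular to that knockdown. Groups did not overlap for 53.6% of the members, beside 65.4% of all genes tested.

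**Figure D4:**
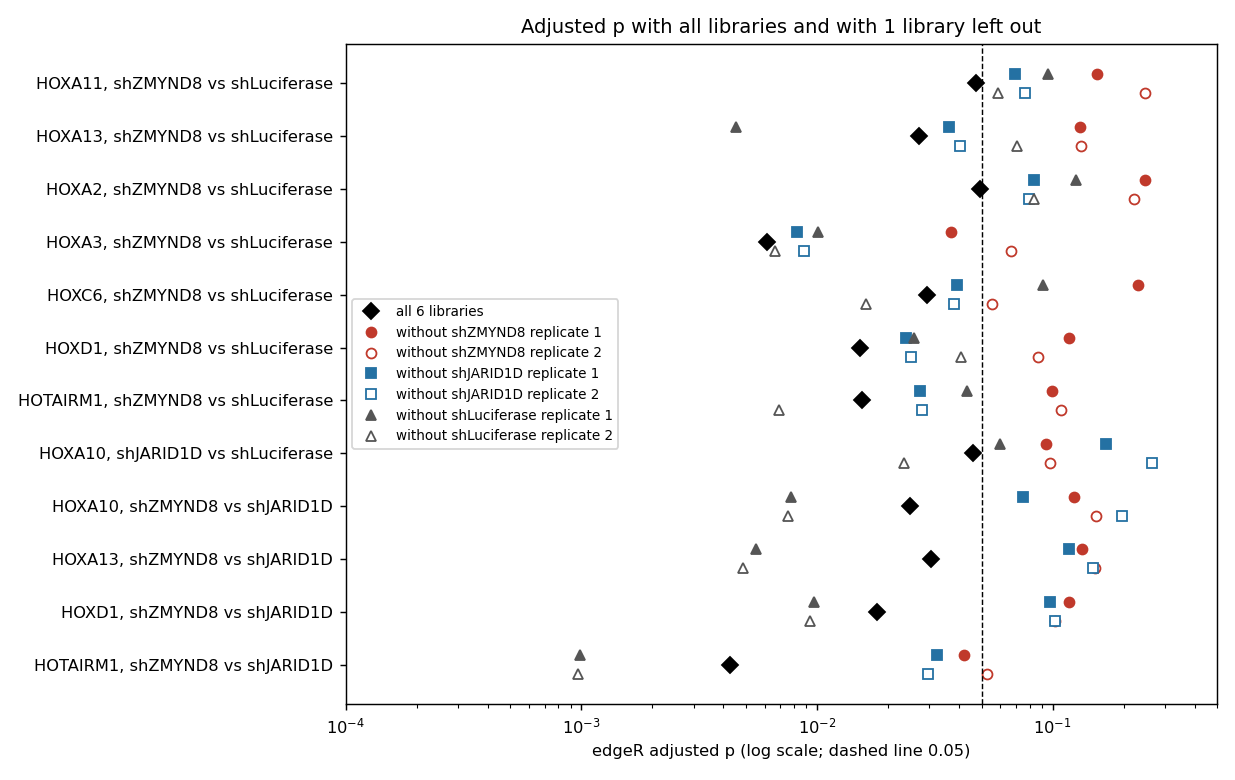
EdgeR adjusted p, on a log axis, of each call among the HOX genes and HOTAIRM1 with all 6 libraries (diamonds) and with 1 library left out (other symbols); the dashed line is the threshold of 0.05. HOXA3 in shZMYND8 against shLuciferase crosses the line in 1 case, without shZMYND8 replicate 2, as does HOTAIRM1 in shZMYND8 against shJARID1D. HOTAIRM1 in shZMYND8 against shLuciferase crosses it without either shZMYND8 library. HOXA11 and HOXA2, in shZMYND8 against shLuciferase, lie right of it in all 6.

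Of 18 noncoding transcripts of the clusters in the table, 8 were tested. In shZMYND8 against shLuciferase 1 of the 8 passed (12.5%, beside 16.2% of all genes). Between the knockdowns 1 of 8 passed as well (12.5%, beside 15.7% of all genes), and both times it was HOTAIRM1. HOTAIRM1 is an antisense transcript of the 3′ end of HOXA and had 3.9 and 3.74 CPM in shZMYND8, 9.04 and 8.74 CPM in shJARID1D, and 7.88 and 6.17 CPM in shLuciferase. Both shZMYND8 libraries were below the other 4. It was lower in shZMYND8 than in shLuciferase, with a log2 fold change of -0.88 ± 0.20 (SE; edgeR adjusted p = 0.0155), and lower than in shJARID1D, with one of -1.22 ± 0.20 (SE; edgeR adjusted p = 0.00429), and its change in shJARID1D against shLuciferase was 0.34 ± 0.19 (SE; edgeR adjusted p = 0.311). Against shLuciferase the call was lost without shZMYND8 replicate 1 (edgeR adjusted p = 0.0989) and shZMYND8 replicate 2 (0.108), within 0.00679 to 0.108, and against shJARID1D it was lost without shZMYND8 replicate 2 (0.0524), within 0.000181 to 0.0524. Whether the counting used strand is unknown here, so reads of HOTAIRM1 and of overlapping sense transcripts cannot be told apart.

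HOXD-AS1, whose start lies beside that of HOXD1, had 12.9 and 13.8 CPM in shZMYND8, 11.01 and 10.8 CPM in shJARID1D, and 10.3 and 9.08 CPM in shLuciferase. Its shZMYND8 values were the highest of the 6, with a log2 fold change of 0.47 ± 0.15 (SE; edgeR adjusted p = 0.0637) against shLuciferase, which did not pass. HOTAIR, a transcript of HOXC known for binding Polycomb proteins, had 1.46 and 1.29 CPM in shZMYND8, 1.63 and 1.2 CPM in shJARID1D, and 1.06 and 1.46 CPM in shLuciferase, with overlapping groups. HOTTIP, from the HOXA13 end of its cluster and known for binding the MLL subunit WDR5, was under the filter, with 0.514 and 0.129 CPM in shZMYND8, 0.214 and 0.0429 CPM in shJARID1D, and 0 and 0.0428 CPM in shLuciferase. The 6 microRNA entries of the clusters were listed at 0 in every library, apart from MIR196A2 in shZMYND8 replicate 1. In shJARID1D against shLuciferase 0 of the 8 noncoding transcripts passed in edgeR, DESeq2 or limma voom (beside 5.75% of all genes in edgeR). There was 1 at an unadjusted p under 0.05 in edgeR (beside 23.6%).

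The table also holds genes that flank the clusters. In shZMYND8, 6 of 29 tested flanking genes passed (20.7%, beside the 16.2% of all genes), 2 higher and 4 lower; the count was 0 without either shZMYND8 library and 3 and 2 without shJARID1D replicate 1 and 2. SKAP2, an adaptor protein gene beyond the 3′ end of HOXA, was lower, with a log2 fold change of -0.63 ± 0.18 (SE; edgeR adjusted p = 0.0395), and so was CBX1, a heterochromatin protein gene near HOXB, with -0.50 ± 0.12 (SE; edgeR adjusted p = 0.0199). NFE2L2, the oxidative stress regulator beyond HOXD, was higher, with a log2 fold change of 0.48 ± 0.11 (SE; edgeR adjusted p = 0.0195), and so was SNX11, a sorting nexin gene near HOXB, with 0.55 ± 0.13 (SE; edgeR adjusted p = 0.0193). All 4 lost their calls without shZMYND8 replicate 1 (edgeR adjusted p from 0.130 to 0.202) and without shZMYND8 replicate 2 (from 0.0865 to 0.174). NFE2L2 lost it also without shJARID1D replicate 2 (edgeR adjusted p = 0.0521), and SKAP2 without shJARID1D replicate 1 (0.0618), shJARID1D replicate 2 (0.0613) and shLuciferase replicate 1 (0.103). In shJARID1D 1 of 29 passed (3.45%, beside 5.75% of all genes), NFE2L2, higher, with a log2 fold change of 0.48 ± 0.11 (SE; edgeR adjusted p = 0.0423), and it kept the call only without shLuciferase replicate 1 (edgeR adjusted p = 0.0154), against 0.0718 to 0.265 without each other library. Between the knockdowns 3 of 29 passed, UBE2Z higher and CBX1 and SKAP2 lower in shZMYND8 (10.3%, beside 15.7% of all genes). The count was 0 without any 1 of the 4 knockdown libraries (edgeR, with at least 3 at an unadjusted p under 0.05) and 7 without either control library.

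Of 10 tested TALE cofactors 1 passed in shZMYND8 (beside 16.2% of all genes), PBX2, with 57.2 and 57.97 CPM in shZMYND8, 74.3 and 63.01 CPM in shJARID1D, and 35.3 and 35.3 CPM in shLuciferase. It was higher in shZMYND8 with a log2 fold change of 0.71 ± 0.12 (SE; edgeR adjusted p = 0.00491), and in shJARID1D with 0.96 ± 0.12 (SE; edgeR adjusted p = 0.00758), where it was also the 1 of 10 that passed (beside 5.75%), with no overlap with the controls. The list's count was 2 without either control library in shZMYND8, and 3 without shLuciferase replicate 1 in shJARID1D. The first call was lost without shZMYND8 replicate 1 (edgeR adjusted p = 0.0516) and the second without shJARID1D replicate 1 (0.0849). Between the knockdowns 2 of the 10 passed (20%, beside 15.7% of all genes). MEIS2 was lower in shZMYND8, with a log2 fold change of -0.78 ± 0.14 (SE; edgeR adjusted p = 0.00807). TGIF1 was higher, with a log2 fold change of 0.47 ± 0.12 (SE; edgeR adjusted p = 0.0285). The call of MEIS2 was lost without shZMYND8 replicate 1, shZMYND8 replicate 2 or shJARID1D replicate 1. That of TGIF1 was lost without any 1 of the 4 knockdown libraries.

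Among regulators of the clusters, 6 of 38 Polycomb genes passed in shZMYND8 (15.8%, beside 16.2% of all genes), 3 higher and 3 lower, and without shZMYND8 replicate 1 or 2 the count was 1, without shJARID1D replicate 1 or 2 it was 3 or 2, and without shLuciferase replicate 2 it was 10. SCML1, a relative of a fly Polycomb protein, was lower, with a log2 fold change of -0.96 ± 0.12 (SE; edgeR adjusted p = 0.00111), and kept its call without each library in turn. KDM6B, a demethylase that removes the Polycomb mark, was higher, with a log2 fold change of 0.96 ± 0.20 (SE; edgeR adjusted p = 0.0114), and lost its call without shZMYND8 replicate 1 (edgeR adjusted p = 0.0972) or shZMYND8 replicate 2 (0.0611). In shJARID1D 2 of 38 passed (5.26%, beside 5.75%), both lower: PHF19, with a log2 fold change of -0.79 ± 0.15 (SE; edgeR adjusted p = 0.0208), and SCML2, with -0.74 ± 0.14 (SE; edgeR adjusted p = 0.0197). PHF19, a subunit of PRC2, lost its call without shJARID1D replicate 1 (edgeR adjusted p = 0.167) or 2 (0.107), and SCML2 without the same libraries (0.172 and 0.0981). Between the knockdowns 4 of 38 passed (10.5%, beside 15.7%), 3 higher and 1 lower in shZMYND8, a count of 0 or 1 without any 1 knockdown library and of 11 without either control library.

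Of 24 genes of MLL and COMPASS complexes, 5 passed in shZMYND8 (20.8%, beside 16.2% of all genes), 3 higher and 2 lower, and the count was 1 and 0 without shZMYND8 replicate 1 and 2, 3 without shJARID1D replicate 2 and 9 without either control library. KMT2D, a methyltransferase of histone H3 lysine 4, was higher, with a log2 fold change of 0.64 ± 0.12 (SE; edgeR adjusted p = 0.00612), and lost its call without shZMYND8 replicate 2 (edgeR adjusted p = 0.0696). CXXC1, which binds unmethylated CG sites, was lower, with a log2 fold change of -0.79 ± 0.16 (SE; edgeR adjusted p = 0.0104), and lost its call without shZMYND8 replicate 1 (0.103) or 2 (0.0593). In shJARID1D 0 of 24 passed in edgeR, DESeq2 or limma voom (beside 5.75% of all genes in edgeR). At an unadjusted p under 0.05 in edgeR there were 7 of 24, beside 23.6% of all genes. Without shLuciferase replicate 1 the count that passed was higher, as was that over all genes. Between the knockdowns 9 of 24 passed (37.5%, beside 15.7% of all genes), 5 higher and 4 lower in shZMYND8, a count of 0 or 1 without any 1 knockdown library and of 13 without either control library. The share of the list was not tested against that of all genes.

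Of 13 genes of retinoic acid signalling tested, 1 passed in shZMYND8 (7.69%, beside 16.2% of all genes): RARA, a retinoic acid receptor, higher, with a log2 fold change of 0.77 ± 0.12 (SE; edgeR adjusted p = 0.00376), a call kept without each library in turn. In shJARID1D 1 passed (beside 5.75%): ALDH1A3, an enzyme that makes retinoic acid, lower, with a log2 fold change of -0.87 ± 0.13 (SE; edgeR adjusted p = 0.00973), a call lost without shJARID1D replicate 1 (edgeR adjusted p = 0.0662) or 2 (0.0887). Between the knockdowns 4 of 13 passed (30.8%, beside 15.7%), 2 in each direction, a count of 0 or 1 without any 1 knockdown library.

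Other homeobox genes of the ANTP class, to which HOX genes belong, passed in 4 of 19 cases in shZMYND8, 3 higher and 1 lower (21.1%, beside 21.4% of the HOX members), and leaving out shZMYND8 replicate 1 gave 1 call, while leaving out shZMYND8 replicate 2 or either control library gave 2. NKX2-1, a lineage factor of lung and thyroid, was lower, with a log2 fold change of -0.94 ± 0.14 (SE; edgeR adjusted p = 0.00221), and kept its call without each library in turn. In shJARID1D 0 of 19 passed in edgeR, DESeq2 or limma voom. At an unadjusted p under 0.05 in edgeR there were 2 of 19, beside 23.6% of all genes. The shares of all genes that passed in edgeR were 16.2% in shZMYND8 and 5.75% in shJARID1D. Between the knockdowns 4 of 19 passed (21.1%, beside 15.7% of all genes), and 0 to 2 without any 1 knockdown library.

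Of the tested markers of stromal, basal, immune and neural cells, 1 of 9 passed in shZMYND8 in edgeR (beside 16.2% of all genes). At an unadjusted p under 0.05 in edgeR there were 6, beside 31.3% of all genes. In shJARID1D 0 of 9 passed in edgeR, DESeq2 or limma voom (beside 5.75% of all genes in edgeR). There was 1 at an unadjusted p under 0.05 in edgeR (beside 23.6%), and no endothelial marker was tested. The summed CPM of 6 stromal markers was 7.37 and 6.74 in shZMYND8, 5.44 and 3.52 in shJARID1D, and 3.15 and 2.27 in shLuciferase, with DCN listed at 0 in all 6. The collagen gene COL1A1 was higher in shZMYND8, with a log2 fold change of 1.65 ± 0.42 (SE; edgeR adjusted p = 0.026), a call lost without shZMYND8 replicate 1 (edgeR adjusted p = 0.136), shZMYND8 replicate 2 (0.103) or shLuciferase replicate 2 (0.0756). Of 6 epithelial markers 3 passed in shZMYND8 (50%, beside 16.2% of all genes). EPCAM was lower in shZMYND8, with a log2 fold change of -1.68 ± 0.17 (SE; edgeR adjusted p = 0.000546), as was KRT19, with -1.16 ± 0.16 (SE; edgeR adjusted p = 0.00184), and both kept their calls without each library in turn. The cadherin gene CDH1 was higher, with a log2 fold change of 1.01 ± 0.22 (SE; edgeR adjusted p = 0.013), a call lost without shZMYND8 replicate 1 (0.103) or 2 (0.0539). In shJARID1D 3 of 6 passed (50%, beside 5.75% of all genes), all lower: the keratin genes KRT7, with a log2 fold change of -0.82 ± 0.17 (SE; edgeR adjusted p = 0.0256), KRT18, with -0.67 ± 0.15 (SE; edgeR adjusted p = 0.0349), and KRT8, with -0.86 ± 0.21 (SE; edgeR adjusted p = 0.0465). All 3 calls were lost without any 1 of the 4 knockdown libraries, and those of KRT18 and KRT8 also without shLuciferase replicate 2 (edgeR adjusted p from 0.00229 to 0.288 over the 3 genes and the libraries left out). The summed epithelial CPM was 2182 and 2261 in shZMYND8, 1647 and 1885 in shJARID1D, and 2359 and 3368 in shLuciferase. The part of these differences in the HOX values was not tested.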

How the data were processed

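RNA-seq of 6 DU145 libraries was analysed. Values are expected counts, that is estimated fragments per gene, in the authors' deposited Cuffdiff gene table; its status marks are of another unit and served only to leave out 60 genes marked HIDATA (not quantified), a choice the design had not foreseen. Build hg19 and the tools Cuffdiff, Bowtie 1.1.2, edgeR 3.12.0 and TopHat2 2.0.12 are listed, per the submitters' processing notes. The gene annotation, any poly(A) selection and strandedness were not stated there. Columns named Rac7_KO were taken as shZMYND8, since an antibody label gives RACK7 as another name of ZMYND8. The table's 18 variance columns were not used. A single fragment is worth 0.881 to 1.16 deposited counts, and 84.0% to 84.9% of values came out whole within 0.05 after division by it. The libraries then held 19919211 to 26793361 fragments.

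Deposited counts were rounded and fitted with edgeR 4.0.16 (R 4.3.3): quasi-likelihood F test, TMM factors (0.966 to 1.057), filterByExpr, 3 residual degrees of freedom shared by the 3 groups, and Benjamini-Hochberg adjustment over the 15867 of 28443 genes that passed this filter (threshold 0.05). The fit was also run on counts simulated with the spread estimated from these same libraries, which cannot test whether that spread is right. Standard errors come from the fit. Alternatives were other scalings, filters, DESeq2 1.42.0, limma 3.58.1 (voom), the groups compared alone, a replicate block and each library left out. The members, lists and named genes were chosen with earlier results of these data known. Members with a mean count of 10 or more are named, the others by range, as are noncoding and flanking genes at that minimum, and up to 4 genes past the threshold of each other list; markers named beside them are additions. Sequences are from RefSeq, GRCh38.p14, read by symbol and not by the files' coordinates. A few items that the rule would name are not reported here; they stay in the counts, medians and sums.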

Additional observations from a re-analysis of the deposited data

How the results depend on the processing

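In shZMYND8 against shLuciferase 6 HOX members passed; the count was 2 with no filter on low counts and 0 to 4 when 1 library was left out. In shJARID1D against shLuciferase 1 passed; the count was 0 with library totals only, no filter, a mean count of at least 50, limma voom or the groups compared alone, and 0 to 2 with 1 library left out. Between the knockdowns 3 passed; the count was 1 with no filter, 5 with the groups compared alone, and 0 to 4 with 1 library left out. Over all genes, the 2574 calls of shZMYND8 ran from 642 to 3222 with 1 library left out. The 912 of shJARID1D became 204 with no filter and 449 with the groups compared alone, and ran from 16 to 2145 with 1 library left out. The 2490 between the knockdowns became 1560 with no filter and 4252 with the groups compared alone, and ran from 551 to 4191 with 1 library left out. The number of members with a mean count of 10 or more, 28, was also 28 without each library in turn, and 29 members reached a mean count of 5 and 26 one of 20.

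The labels state no pairing of libraries by replicate number. Differences between replicates 1 and 2 correlated weakly and positively across genes between the groups. The correlation was 0.0969 between shZMYND8 and shJARID1D, 0.0925 between shZMYND8 and shLuciferase, and 0.170 between shJARID1D and shLuciferase. Whether libraries of equal number share a batch cannot be told from these values. With a replicate block, 7, 2 and 4 HOX members passed in the 3 comparisons in the order above, and 3699, 2073 and 3785 genes in all. HOXA5 in shZMYND8, HOXC6 in shJARID1D and HOXA11 between the knockdowns were the members gained.

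Among 1233 values of single genes under alternatives, 55 lost a call, 9 gained one and 0 changed sign with a call; 71 changed sign with neither value past the threshold. The causes were not tested, apart from the loss of libraries itself. With 2 libraries a group, leaving 1 out leaves a single library that is assumed to vary like the others. Library totals only moved the median log2 fold change of all genes to 0.09 in shJARID1D, with 709 higher and 294 lower calls in place of 469 and 443; in shZMYND8 it gave 1515 and 970 in place of 1410 and 1164. Depth limits what can be said of the 11 members under a mean count of 10, which were not tested.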
